A study of Mus musculus with 6 samples.

Results

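The 44 protein-coding mouse genes whose symbol names a collagen alpha chain (Col, the collagen type, a and the chain) were followed in RNA of sorted fetal liver cells at 2 stages of bile duct development. They are all genes of that symbol form among the 52550 genes listed in the deposited table, of which 21819 are protein-coding, and the rule that selects them uses the symbol and no expression value. The cells came from CD-1 mouse embryos of the genotype Sox9-GFP, in which green fluorescent protein reports the transcription factor gene Sox9, and no drug or mutation was compared. For each library, 15 livers were pooled and dissociated, blood lineage cells were depleted on magnetic beads and GFP-positive cells were sorted. Each stage, E16.5 and E18.5, had 3 libraries, called replicates A, B and C, and the labels write the stages as embryonic days 16 and 18. The transgene marks cells by Sox9 expression and not by position, and the labels name the cells cholangiocytes, the epithelial cells of the bile ducts.

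Collagens are trimers of alpha chains wound into a triple helix, and each chain has its own gene. Fibrillar chains such as those of types I and III build the banded fibrils of connective tissue, type IV chains form the sheet-like network of basement membranes on which epithelia rest, type VI chains form beaded filaments, and fibril-associated chains sit on the surface of fibrils. In the liver, stellate cells and portal fibroblasts are the best known sources of fibrillar collagen, and type IV and type XVIII collagen lie in basement membranes around ducts and vessels.

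Reads recovered from the deposited values, over 49583 genes, came to between 13093937 and 26206374 a library. Every E18.5 library had fewer than every E16.5 library, and reads of other genes are not in these totals. Values are in TPM, transcripts scaled to a fixed library total, after division by gene length. Sox9 is the gene whose reporter was used to sort the cells, so its presence follows from the sort. It had 157, 186 and 69.5 TPM (replicates A, B, C) at E16.5, followed by 415, 466 and 353 TPM at E18.5. The sum of 10 cholangiocyte markers, Sox9 among them, was 912 to 2803 TPM at E16.5 and then 8578 to 14558 TPM at E18.5. Transcripts of genes that mark other cells were also present, and whether they came from the sorted cells themselves was not tested. The sum of 10 hepatoblast markers, such as Alb and Afp, was 159940 to 200612 TPM at E16.5 and then 37078 to 85000 TPM at E18.5, and the sum of 9 megakaryocyte markers was 3342 to 9657 TPM and then 96.6 to 771 TPM. In such bulk RNA, fewer cells of a type and less RNA per cell cannot be told apart, and the stage cannot be told apart from the day on which each pool was dissociated and sorted.

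Several collagen genes are neighbours. Col4a1 (ENSMUSG00000031502.11, chr8:11198423-11312826, reverse strand) and Col4a2 (ENSMUSG00000031503.13, chr8:11312805-11449287, forward strand) lie head to head, with their annotated starts 21 bp apart on GRCm38. Col4a4 (chr1:82448423-82586849, reverse strand) and Col4a3 (chr1:82586921-82722059, forward strand) are arranged in the same way with starts 72 bp apart, as are Col4a6 and Col4a5 on chromosome X with starts 1309 bp apart. Col3a1 and Col5a2 lie tail to tail on chromosome 1 with 24614 bp between them. The start regions shown next are those of genes on which the results turn: the windows shared by the head-to-head type IV pairs, 2 genes that rose at E18.5 (Col27a1 and Col9a2), and 2 interstitial collagen genes whose libraries spread widely (Col1a2 and Col3a1). Each window is taken from RefSeq on GRCm38.p6 and runs 5′ to 3′ on the gene's strand, from 250 bases before to 50 bases after the RefSeq start. For Col27a1 and Col1a2 the gene starts of the annotation used elsewhere here, 63214004 and 4504814, lie outside the window. Capitals mark 3 motifs read on either strand, and matches that overlap run together. One is CCAAT, a common promoter element known by its letters. Another is the GC box, bound by proteins of the Sp family, with the letters GGGCGG. The last is a short form of the TATA box, found near the start of many tissue-specific genes, with the letters TATAA.
Col4a2 (chr8:11312555-11312854, forward strand, also holding the start of Col4a1): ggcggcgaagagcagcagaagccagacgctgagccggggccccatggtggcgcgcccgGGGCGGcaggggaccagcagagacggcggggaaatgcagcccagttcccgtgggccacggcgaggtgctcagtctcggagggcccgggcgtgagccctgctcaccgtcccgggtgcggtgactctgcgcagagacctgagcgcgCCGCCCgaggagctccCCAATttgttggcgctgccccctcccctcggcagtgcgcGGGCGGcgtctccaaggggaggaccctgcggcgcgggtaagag
Col4a4 (chr1:82586800-82587099, reverse strand, also holding the start of Col4a3): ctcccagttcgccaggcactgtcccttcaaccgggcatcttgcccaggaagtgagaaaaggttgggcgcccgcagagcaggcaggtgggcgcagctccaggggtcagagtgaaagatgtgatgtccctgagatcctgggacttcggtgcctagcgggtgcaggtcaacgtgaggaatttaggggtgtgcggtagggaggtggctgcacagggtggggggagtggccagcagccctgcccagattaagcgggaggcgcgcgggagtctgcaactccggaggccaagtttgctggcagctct
Col27a1 (chr4:63215162-63215461, forward strand): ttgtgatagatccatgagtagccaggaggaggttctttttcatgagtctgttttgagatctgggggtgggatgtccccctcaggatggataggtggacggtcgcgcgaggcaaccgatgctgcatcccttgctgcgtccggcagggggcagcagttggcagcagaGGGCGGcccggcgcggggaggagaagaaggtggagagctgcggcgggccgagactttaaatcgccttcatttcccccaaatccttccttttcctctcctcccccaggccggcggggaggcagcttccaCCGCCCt
Col9a2 (chr4:121039316-121039615, forward strand): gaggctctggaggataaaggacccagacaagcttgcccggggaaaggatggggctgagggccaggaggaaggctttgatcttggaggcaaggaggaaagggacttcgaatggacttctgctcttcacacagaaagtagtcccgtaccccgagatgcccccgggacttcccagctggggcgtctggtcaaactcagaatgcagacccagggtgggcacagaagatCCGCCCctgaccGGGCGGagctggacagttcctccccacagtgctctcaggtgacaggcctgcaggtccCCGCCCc
Col1a2 (chr6:4505368-4505667, forward strand): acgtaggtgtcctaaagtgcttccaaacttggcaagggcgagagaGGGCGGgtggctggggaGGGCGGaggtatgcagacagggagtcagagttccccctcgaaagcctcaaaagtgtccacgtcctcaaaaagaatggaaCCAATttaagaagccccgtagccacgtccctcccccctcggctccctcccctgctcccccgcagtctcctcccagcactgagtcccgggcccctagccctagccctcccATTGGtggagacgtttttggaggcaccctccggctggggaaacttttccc
Col3a1 (chr1:45311288-45311587, forward strand): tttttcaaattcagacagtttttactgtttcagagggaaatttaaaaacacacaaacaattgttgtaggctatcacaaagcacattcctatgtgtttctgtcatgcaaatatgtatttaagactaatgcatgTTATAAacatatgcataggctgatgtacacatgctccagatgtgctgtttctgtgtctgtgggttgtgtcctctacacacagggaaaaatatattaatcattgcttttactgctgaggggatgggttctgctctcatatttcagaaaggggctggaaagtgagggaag
The Col4a2 window is the richest in GC of those shown and has 3 GC boxes and 1 CCAAT, whereas the Col4a4 window has none of the 3 motifs. The Col3a1 window has the letters TATAA on both strands at one place and no GC box. RefSeq windows were found for 35 of the 44 genes, 38 windows in all. No window of their own was found for Col1a1, Col2a1, Col4a3, Col5a2, Col9a3, Col12a1, Col14a1, Col22a1 and Col26a1. GGGCGG occurred in 23 of the 38 windows (60.5%), against 35.7% of all 32851 windows of this length, and the median GC content was 59.8% against 52.7%. CCAAT occurred in 34.2% against 37.4%, and TATAA in 18.4% against 24.9%. ACAAT, the core letters recognised by SOX proteins, occurred in 2 windows (5.26%) against 31.0% of all windows. The windows compared were not matched for GC content, so these shares cannot be told apart from the difference in base content. A match of letters describes the sequence and is not a measured binding site.

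All but 1 of the 44 genes had a value above 0 in every library. The exception was Col6a4, a type VI-like chain, which was listed at 0 in replicate A of E18.5, where 3 reads would have given 0.0514 TPM, a limit that covers counting error only. Col18a1 (ENSMUSG00000001435.15, chr10:77052178-77166548), whose product is a basement membrane proteoglycan and the source of endostatin, was by far the most abundant. It had 641, 649 and 675 TPM at E16.5, against 747, 448 and 599 TPM at E18.5, above 99.6% of the protein-coding genes at both stages. Only Col18a1 and Col4a1 reached 100 TPM in each of the 6 libraries. Means of at least 10 TPM were reached by 13 collagen genes at E16.5 and by 18 at E18.5. At the low end, 7 genes had a mean under 1 TPM over the 6 libraries and were not tested: Col6a5, Col8a1, Col28a1, Col22a1, Col26a1, Col6a4 and Col19a1. Their values lay between 0 and 1.49 TPM. Among the genes called below whose reads could be recovered, the fewest reads in a library were 22, for Col9a1 in replicate C of E16.5.

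**Figure D1:**
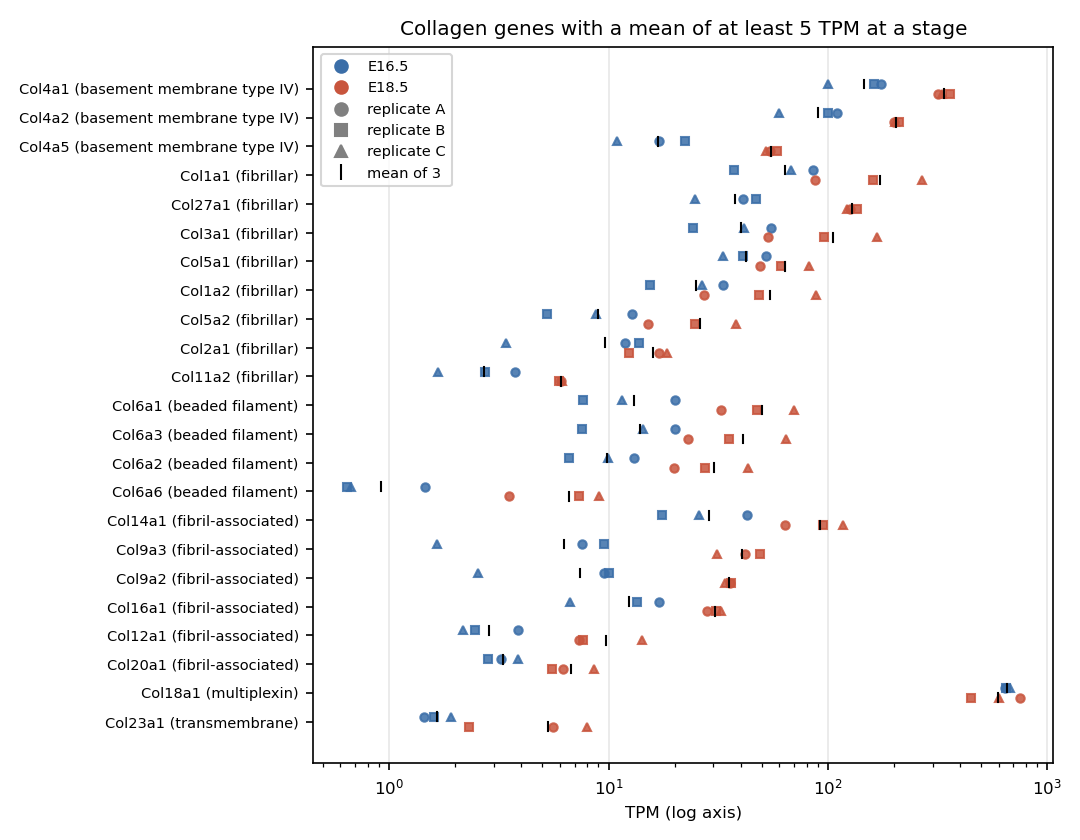
TPM on a log axis of the 23 collagen genes that averaged 5 TPM or more at a stage, grouped by class, with blue points for E16.5, red points for E18.5, a symbol for each replicate letter and a bar for the mean of 3 libraries. Type IV points at E18.5 lie close together, Col1a1, Col3a1 and Col1a2 spread about 3-fold at E18.5 (3.08, 3.13 and 3.24 times between the lowest and the highest library), and Col18a1 lies far to the right with overlapping stages.

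Summed over the 44 genes, collagen transcripts came to 1406, 1218 and 1151 TPM at E16.5 and then to 2002, 2019 and 2475 TPM at E18.5. The mean rose from 1258 ± 132 to 2166 ± 268 TPM (SD, n = 3), a ratio of 1.72, and the stages did not overlap. The difference of 907 TPM became 372 TPM after the libraries were scaled by the median of ratios. Col18a1 gave 45.6% to 58.6% of the sum by library at E16.5, against 22.2% to 37.3% at E18.5. Without Col18a1 the sum was 603 ± 147 TPM at E16.5 and then 1567 ± 310 TPM at E18.5, a ratio of 2.60. The 3 most abundant collagen genes of a library together gave 65.8% to 74.9% of its collagen transcripts at E16.5, compared with 48.5% to 63.2% at E18.5. These sums are descriptions and were not tested.

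The stages were compared gene by gene with limma on log2(TPM + 1). The 22452 genes averaging 1 TPM or more entered the fit, and p-values were adjusted over all of them by the Benjamini-Hochberg method. Fold changes below are on this log2 scale, E18.5 over E16.5, which understates the change of low genes. Of the 37 collagen genes tested, 19 were called higher at E18.5 (51.4%) at an adjusted p under 0.05, against 26% of all genes tested. None was called lower by limma, against 5.22% of all genes, and 26 had an unadjusted p under 0.05, all of them with a positive change. For 23 of the 37 genes (62.2%) every E18.5 library lay above every E16.5 library, which was so for 45% of all genes, and for 0 genes was it the reverse, against 8.3% of all genes. The other 14 genes had stages that overlapped. The median log2 fold change of the 37 genes was 1.13, with a range from -0.16 to 2.73, beside a median of 0.42 over all genes tested. Thus 36 of the 37 collagen genes had a positive change and 35 lay above the all-gene median.
The all-gene shift of 0.42 matters for these counts. When the libraries were scaled by the median of ratios, the all-gene median was 0.00 and the collagen median 0.76. Then 9 collagen genes were called higher and 0 lower, against 6.5% and 10.6% of the 22301 genes tested in that way. The 9 genes were Col4a1, Col4a2, Col4a4, Col4a5, Col9a1, Col9a2, Col9a3, Col27a1 and Col6a6. Of all calls over the genome, 83.3% were higher at E18.5 as deposited and 38.0% after this scaling.
Single libraries also mattered. Without replicate A of E18.5, 9 collagen genes were called, and Col4a2, Col4a6, Col6a3, Col9a1, Col9a2, Col9a3, Col11a2, Col12a1, Col16a1 and Col20a1 were lost. Without replicate B of E18.5, 11 were called, and Col4a6, Col5a2, Col6a2, Col6a3, Col9a1, Col11a2, Col14a1, Col16a1 and Col20a1 were lost, while Col23a1 was gained (limma adjusted p = 0.0313). The other 4 omissions left 14 to 17 calls, with Col20a1 and Col4a6 lost in each, and Col5a2, Col6a3 and Col11a2 in all but that of replicate A of E16.5. Calls fell over all genes too. With all 6 libraries 5828 of 22452 genes were called higher, against 1038 of 22410 without replicate A of E18.5. Without replicate B of E18.5 there were 2100 of 22200, and the other 4 omissions left 3400 to 4622. Col4a1, Col4a4, Col4a5, Col6a1, Col6a6 and Col27a1 were called in each of the 6 fits with 1 library left out, and Col20a1 and Col4a6 in none of them. The labels do not say that the pools came from separate litters, so p-values measure only the spread between these libraries.

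**Figure D2:**
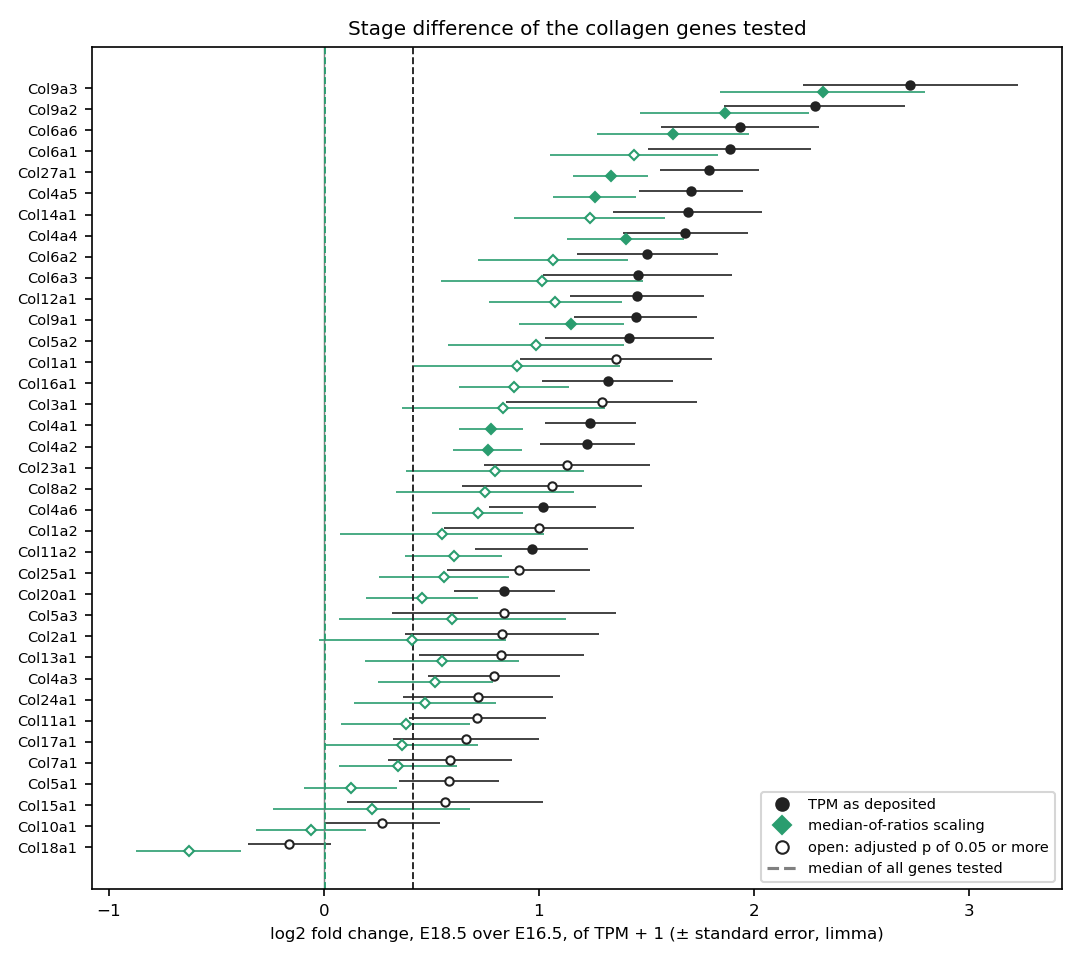
Log2 fold change, E18.5 over E16.5, of TPM + 1 with its limma standard error for the 37 collagen genes tested, from the TPM as deposited (black circles) and after median-of-ratios scaling (green diamonds), with open symbols for an adjusted p of 0.05 or more and dashed lines at the median of all genes tested. All but 2 black circles lie to the right of the dashed line at 0.42, Col9a3 lies farthest right at 2.73, and Col18a1 lies at -0.16.

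Of the 6 type IV genes, 5 rose at E18.5 and Col4a3 did not pass the test, with a median log2 fold change of 1.23 for the class. Of all genes tested 26% were called higher, and the all-gene median change was 0.42. Together they had 173 to 304 TPM at E16.5, against 579 to 643 TPM at E18.5. Col4a1, one of the 2 chains of the widespread type IV network, had 174, 163 and 100.2 TPM at E16.5, followed by 317, 361 and 331 TPM at E18.5. All libraries of E18.5 were therefore above all of E16.5, and the change was 1.24 ± 0.21 (SE, limma adjusted p = 0.0123). Its head-to-head partner Col4a2 had 109.7, 99.8 and 60.0 TPM and then 201, 212 and 202 TPM, a change of 1.23 ± 0.22 (limma adjusted p = 0.0134). In both genes replicate C was the lowest library at E16.5, and the 3 libraries at E18.5 lay within 1.14 and 1.05 times of each other.
The other 4 chains make the networks of specialised basement membranes. Col4a5 (ENSMUSG00000031274.16, chrX:141475385-141689234) had 16.995, 22.4 and 10.9 TPM and then 54.4, 58.4 and 52.2 TPM, and it changed by 1.71 ± 0.24 (limma adjusted p = 0.00931). Its neighbour Col4a6 was much lower, with 1.35, 1.19 and 0.833 TPM and then 2.93, 3.58 and 3.34 TPM, and it changed by 1.02 ± 0.25 (limma adjusted p = 0.0256). Their stages did not overlap, but Col4a6 lost its call whenever 1 library was left out. Col4a4 had 0.747, 0.713 and 0.437 TPM and then 3.03, 4.30 and 5.66 TPM, from 37 to 68 reads at E16.5 and then 220 to 244 reads at E18.5, with a change of 1.68 ± 0.29 (limma adjusted p = 0.0125). Its neighbour Col4a3 had 0.971, 1.02 and 0.667 TPM and then 1.48, 3.26 and 2.25 TPM, also without overlap, but its change of 0.79 ± 0.31 did not pass (limma adjusted p = 0.0866). A gene on the other strand covers 5.65% of the Col4a3 exons, and whether strand was used in counting is not given in the sources used here.

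Among the 11 fibrillar genes, 3 rose (Col27a1, Col5a2 and Col11a2) and 8 did not pass the test. This share was near the 26% of all genes called higher. The class median was 0.97, and the summed level went from 189 to 301 TPM at E16.5 to 387 to 806 TPM at E18.5. With 1 library left out, Col27a1 kept its call in all 6 fits, Col5a2 in 2 and Col11a2 in 1. Only Col27a1 was called after median-of-ratios scaling. Col27a1 (ENSMUSG00000045672.15, chr4:63214004-63334991), which encodes a fibrillar chain best known from cartilage, changed most clearly. It had 40.8, 47.2 and 24.7 TPM at E16.5, against 127, 136 and 123 TPM at E18.5, a change of 1.79 ± 0.23 (limma adjusted p = 0.00852) with no overlap. Col11a2, a chain of type XI collagen, had 3.74, 2.72 and 1.67 TPM and then 6.10, 5.96 and 6.13 TPM, a change of 0.97 ± 0.26 (limma adjusted p = 0.0333).
The chains of interstitial fibrils spread widely at E18.5. Col1a1 (ENSMUSG00000001506.10, chr11:94936224-94953042), the major chain of type I collagen, had 85.5, 37.2 and 67.7 TPM at E16.5, followed by 87.4, 159.7 and 269 TPM at E18.5. Replicate A of E18.5 was barely above replicate A of E16.5, and the change of 1.36 ± 0.45 did not pass (limma adjusted p = 0.0555). Col1a2 (ENSMUSG00000029661.16, chr6:4504814-4541544), the partner chain, had 33.3, 15.4 and 26.6 TPM and then 27.1, 48.7 and 87.9 TPM, and Col3a1 (ENSMUSG00000026043.18, chr1:45311538-45349706), the chain of type III collagen, had 55.1, 24.3 and 41.5 TPM and then 53.4, 96.4 and 167 TPM. In both genes replicate A of E18.5 fell inside the E16.5 range, and the changes of 1.001 ± 0.44 and 1.29 ± 0.44 did not pass (limma adjusted p = 0.119 and 0.0618).
Col5a2, whose chain joins type V collagen and helps to set fibril width, had 12.8, 5.25 and 8.80 TPM and then 15.2, 24.8 and 38.0 TPM. It changed by 1.42 ± 0.39 (limma adjusted p = 0.0344), and its partner Col5a1, with 52.1, 40.9 and 33.4 TPM and then 48.8, 60.9 and 82.3 TPM, overlapped between stages and did not pass (0.58 ± 0.23, limma adjusted p = 0.0922). Col2a1, the main cartilage collagen, had 11.9, 13.7 and 3.43 TPM and then 17.1, 12.4 and 18.46 TPM, and it also overlapped and did not pass (0.83 ± 0.45, limma adjusted p = 0.187). The remaining fibrillar genes, Col5a3, Col11a1 and Col24a1, stayed under 6 TPM in each library, and their stages overlapped.

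All 4 type VI and VI-like genes tested rose, with a median change of 1.70, and their 3 relatives Col6a4, Col6a5 and Col28a1 were too low to test. The background was 26% of all genes called higher and an all-gene median of 0.42. The class summed to 23.2 to 55.5 TPM at E16.5 and then 79.7 to 189 TPM at E18.5. Type VI collagen is made of the chains of Col6a1, Col6a2 and Col6a3 in most tissues. Col6a1 (ENSMUSG00000001119.7, chr10:76708792-76726168) had 20.0, 7.64 and 11.5 TPM at E16.5, against 32.6, 47.4 and 69.7 TPM at E18.5, a change of 1.89 ± 0.38 (limma adjusted p = 0.0161). Col6a2 had 13.04, 6.57 and 9.89 TPM and then 20.0, 27.5 and 43.3 TPM, with a change of 1.504 ± 0.33 (limma adjusted p = 0.0193). Col6a3, the chain that carries the longest globular part of the trimer, had 20.0, 7.58 and 14.3 TPM and then 23.0, 35.5 and 64.6 TPM, with a change of 1.46 ± 0.44 (limma adjusted p = 0.0438). In these 3 genes the stages did not overlap, yet replicate A of E18.5 stood only a little above replicate A of E16.5 in Col6a3. Col6a6 rose from 1.45, 0.643 and 0.670 TPM to 3.51, 7.30 and 9.05 TPM, which was 1.94 ± 0.37 on the log2 scale (limma adjusted p = 0.0144) and a ratio of means of 7.19. It was the only gene of the class called after median-of-ratios scaling, where Col6a1 had an adjusted p of 0.0515 in limma.

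All 7 fibril-associated genes tested rose, with a median change of 1.46, and Col19a1 and Col22a1 were too low to test. Beside them, 26% of all genes were called higher, with an all-gene median of 0.42. Each of the 7 lost its call in at least 1 of the 6 fits with 1 library left out. After median-of-ratios scaling only the 3 type IX genes were called. The class went from 43.6 to 85.6 TPM at E16.5 to 187 to 242 TPM at E18.5. The 3 chains of type IX collagen, which decorates type II fibrils in cartilage and the eye, had ratios of means of 6.54 (Col9a3), 4.78 (Col9a2) and 4.56 (Col9a1), exceeded among the 44 genes only by Col6a6 (7.19) and Col4a4 (6.85). Col9a3 (ENSMUSG00000027570.15, chr2:180597790-180622189) had 7.54, 9.52 and 1.66 TPM at E16.5, followed by 41.8, 49.2 and 31.3 TPM at E18.5, a change of 2.73 ± 0.50 (limma adjusted p = 0.0139). Col9a2 (ENSMUSG00000028626.5, chr4:121039385-121055322) had 9.53, 10.1 and 2.55 TPM and then 35.6, 36.2 and 34.0 TPM, a change of 2.28 ± 0.42 (limma adjusted p = 0.0139). Col9a1, the lowest of the 3, had 1.04, 1.26 and 0.544 TPM and then 3.95, 5.52 and 3.498 TPM, a change of 1.45 ± 0.29 (limma adjusted p = 0.0154). The stages were well apart in these genes, replicate C was the lowest library at both stages, and all 3 lost their call without replicate A of E18.5, Col9a1 also without replicate B. Exons of Tcfl5 on the opposite strand cover 6.07% of those of Col9a3.
Markers of chondrocytes, the cells best known for types II, IX and XI collagen, were measured beside them. Acan, the defining proteoglycan of cartilage, stayed between 0.131 and 0.429 TPM, Epyc was listed at 0 in every library, and 7 of the 10 chondrocyte markers had a mean under 1 TPM. Of the 3 tested, Snorc rose, from 9.85, 11.2 and 8.86 TPM to 34.4, 33.9 and 27.3 TPM (1.58, limma adjusted p = 0.00669). The other 2 tested were not called, and the median change of the 3 was 0.33, below the all-gene median of 0.42. The sum of the 10 markers, Snorc included, was 20.8 to 23.2 TPM at E16.5 and then 40.1 to 50.3 TPM at E18.5.
Col14a1 (ENSMUSG00000022371.15, chr15:55307750-55520803), a chain of type I fibril surfaces, had 42.9, 17.6 and 25.9 TPM at E16.5, against 63.8, 95.3 and 117 TPM at E18.5, a change of 1.69 ± 0.34 (limma adjusted p = 0.0165). Col16a1 had 17.001, 13.4 and 6.70 TPM and then 28.0, 31.0 and 32.6 TPM, a change of 1.32 ± 0.30 (limma adjusted p = 0.0218). Col12a1, found on fibrils of dense connective tissue, had 3.88, 2.48 and 2.17 TPM and then 7.37, 7.68 and 14.3 TPM, with a change of 1.46 ± 0.31 (limma adjusted p = 0.0183). None of these 3 genes overlapped between the stages. Col20a1 went from 3.23, 2.81 and 3.86 TPM to 6.21, 5.51 and 8.57 TPM, and its smaller change of 0.84 ± 0.24 (limma adjusted p = 0.0357) was lost whenever 1 library was left out.

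None of the remaining tested genes passed the test, and they were multiplexins, membrane-spanning collagens, short-chain network collagens and the anchoring fibril gene Col7a1. Col18a1, the multiplexin described above, changed by -0.16 ± 0.19 (limma adjusted p = 0.533), and its libraries at E18.5 lay on both sides of the E16.5 range. After median-of-ratios scaling its change was -0.63 ± 0.24 (limma adjusted p = 0.127), so it had the lowest change of the 37 collagen genes tested on either scale. Its sister gene Col15a1 had 1.45 to 3.82 TPM at E16.5, followed by 1.87 to 7.68 TPM at E18.5, without a call (limma adjusted p = 0.356). Of the membrane-spanning genes, Col23a1 had 1.44, 1.61 and 1.92 TPM and then 5.61, 2.32 and 7.94 TPM without overlap, but its change of 1.13 ± 0.39 did not pass (limma adjusted p = 0.0607), except without replicate B of E18.5. Col13a1, Col17a1 and Col25a1 overlapped between stages. Col10a1, the short-chain collagen of hypertrophic cartilage, had 2.76, 1.64 and 2.20 TPM and then 3.64, 2.5003 and 2.44 TPM, and its direction was not the same on both scales (0.27 as deposited and -0.06 after median-of-ratios scaling).

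Chains that assemble with each other can be compared within a library, where scaling between libraries cancels. Lengths are those of the joined exons of each gene, so the ratio between 2 genes depends on the annotation, and its difference between stages does not. The ratio of Col4a1 to Col4a2 was 1.58, 1.63 and 1.67 at E16.5 and then 1.58, 1.71 and 1.64 at E18.5, with a stage difference of 0.01 on the log2 scale (exact two-sided permutation test, p = 0.8). Thus both genes rose while their ratio stayed within 1.58 to 1.71 in all 6 libraries. The ratio of Col1a1 to Col1a2 was 2.57, 2.42 and 2.55 at E16.5, against 3.22, 3.28 and 3.07 at E18.5. The stages did not overlap, and the means were 2.51 ± 0.0810 and 3.19 ± 0.109 (SD, n = 3), a log2 difference of 0.35 (exact two-sided permutation test, p = 0.1). The ratio of Col6a1 to Col6a2 was 1.54, 1.16 and 1.16 and then 1.63, 1.73 and 1.61, a log2 difference of 0.38 (exact two-sided permutation test, p = 0.1). With 3 libraries against 3, 0.1 is the smallest p this test can give, so neither difference could have passed 0.05.

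**Figure D3:**
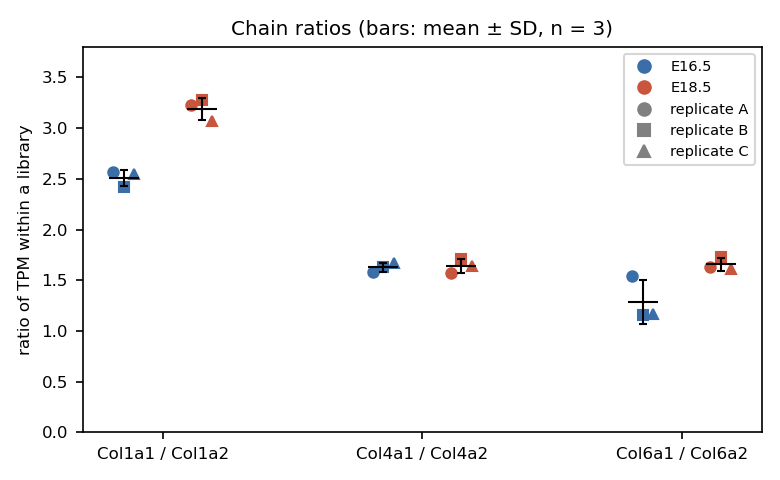
Ratio of TPM of 2 chains within each library for type I (Col1a1 over Col1a2), type IV (Col4a1 over Col4a2) and type VI collagen (Col6a1 over Col6a2), with bars for the mean ± SD of 3 libraries. The type I points of the 2 stages are apart (2.42 to 2.57 and 3.07 to 3.28), while the type IV points cover the same range.

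Within a stage, the collagen genes fell into sets that ranked the libraries differently. In 13 of the 37 genes tested (35.1%) the order from high to low was A, C, B at E16.5 and C, B, A at E18.5, an order shown by 2.39% of all 22452 genes. They were Col1a1, Col1a2, Col3a1, Col5a2, Col6a1, Col6a2, Col6a3, Col6a6, Col8a2, Col11a1, Col14a1, Col15a1 and Col24a1. The summed markers of stellate cells and portal fibroblasts had the same order. They came to 157, 93.3 and 111 TPM at E16.5, followed by 144, 211 and 290 TPM at E18.5. So did the summed endothelial markers, with 291, 185 and 221 TPM and then 156, 284 and 290 TPM, replicates B and C of E18.5 being nearly equal. Of the 12 endothelial markers tested, 1 was called higher and 0 lower. After median-of-ratios scaling 0 of them were called higher and 3 lower. Of the fibroblast markers, 5 of the 12 tested were called higher and 0 lower, with 0 of the 5 called in each fit with 1 library left out, and after median-of-ratios scaling 0 were called in either direction; their part in the collagen values was not tested.
A second set of 5 genes, Col27a1, Col4a5, Col9a1, Col9a2 and Col9a3, had the order B, A, C at both stages, as had 13.1% of all genes, so the share of 13.5% among the collagen genes was near that of the genome. The summed cholangiocyte markers had this order too, with 2278, 2803 and 912 TPM at E16.5 and then 12308, 14558 and 8578 TPM at E18.5, and 8 of the 10 were called higher, 1 of them in each fit with 1 library left out, and 4 after median-of-ratios scaling. Col4a1, Col4a2 and Col4a6 had the order A, B, C and then B, C, A, which was that of the summed mesothelial markers (33.6, 22.4 and 14.96 TPM, then 80.5, 148 and 140.1 TPM, with 7 of 7 called higher). This order was shown by 6.12% of all genes and 8.11% of the collagen genes, again a share near that of the genome. Other sets had an order that no marker sum had. Col4a4, Col5a1, Col12a1, Col13a1 and Col16a1 (13.5%) had A, B, C and then C, B, A, against 3.23% of all genes. Col7a1, Col17a1 and Col20a1 (8.11%) had C, A, B at both stages, against 3.60% of all genes. Col18a1 had the order C, B, A at E16.5, like the hepatoblast marker sum, and A, C, B at E18.5, where both were lowest in replicate B. At E18.5 the highest library had a median of 1.18 times the lowest over the 6 type IV genes (range 1.05 to 2.20), 1.57 times over the 7 fibril-associated genes, 2.37 times over the 4 type VI genes and 2.503 times over the 11 fibrillar genes (range 1.03 to 4.71), with 2.85 times over the 4 membrane-spanning genes and 2.89 times over the 2 multiplexins. Over all 22452 genes tested the median was 1.39 times. The membrane-spanning and multiplexin genes other than Col18a1 had 7.94 TPM or less in each library. The ranges of the type IV and fibrillar genes overlapped. These orders were noticed in the data and are descriptions of 6 libraries, with no test.

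**Figure D4:**
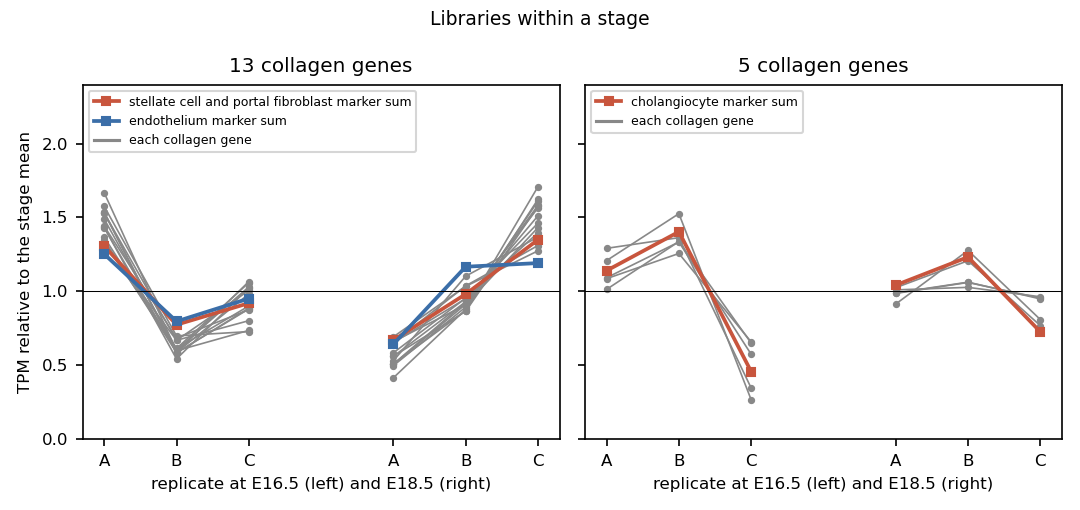
TPM in each library relative to the mean of its stage, for the 13 collagen genes ordered A, C, B and then C, B, A (left panel, grey) with the summed markers of stellate cells and portal fibroblasts (red) and of endothelium (blue), and for the 5 genes ordered B, A, C at both stages (right panel, grey) with the summed cholangiocyte markers (red). On the left the grey lines are highest in replicate A at E16.5 and in replicate C at E18.5, and on the right replicate C is lowest at both stages. Genes and marker sums were picked for each panel by these orders, so the shared order follows from that choice. The order on the left was shown by 2.39% of all genes tested and that on the right by 13.1%.

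The genes that process and bind collagen were counted against the same background of 26% of all genes called higher and 5.22% called lower. Of 18 genes for chain modification and folding, 5 rose, a share near the background, and 2 fell, with a median change of 0.34, below the all-gene median. Serpinh1, the collagen-specific chaperone HSP47, rose from 249, 275 and 121 TPM to 447, 515 and 365 TPM (1.11, limma adjusted p = 0.0367), though not when any of 4 single libraries was left out (replicate A of E16.5 or each one of E18.5). Plod2, a lysyl hydroxylase, rose from 21.8, 27.9 and 13.7 TPM to 57.5, 59.9 and 46.9 TPM (1.38, limma adjusted p = 0.0137; lost without replicate A of E18.5), and P3h3, a prolyl hydroxylase family member, by 1.04 (limma adjusted p = 0.0233; lost without any one E18.5 library). The 2 other lysyl hydroxylase genes, Plod1 and Plod3, rose by 0.70 and 0.92, both calls being lost without replicate A of E18.5 and that of Plod1 also without replicate B. P4hb encodes protein disulfide isomerase, which is also a subunit of prolyl 4-hydroxylase. Its transcripts fell from 1500, 1372 and 1562 TPM to 633, 556 and 641 TPM (-1.28, limma adjusted p = 0.00735). Ppib, a peptidyl-prolyl isomerase, fell by 0.53 (limma adjusted p = 0.0246), a call lost in 4 of the 6 fits with 1 library left out. P4hb had every E18.5 library below every E16.5 library and kept its call in all 6 fits with 1 library left out. After median-of-ratios scaling 1 gene of the list was called higher and 4 lower.
Of the 6 genes for procollagen export, Mia2 rose by 0.50 and Sec24d fell by 0.52 on the log2 scale, and each lost its call in 4 of the 6 fits with 1 library left out. Sec23a, with Mia2 among the 2 most abundant of the list, had a change of -0.30 (limma adjusted p = 0.121). After median-of-ratios scaling Mia2 was no longer called (0.04, limma adjusted p = 0.811), whereas Sec24d and Sec23a were called lower (-0.98 and -0.76, limma adjusted p = 0.0163 and 0.0407). Of the 6 propeptide cleavage genes tested, 3 rose. Bmp1, the procollagen C-proteinase, had 169, 178 and 131 TPM and then 297, 293 and 220.0 TPM (0.75, limma adjusted p = 0.0216; lost without replicate A or replicate B of E18.5), and the N-proteinase genes Adamts2 and Adamts14 rose by 1.30 and 1.26 (limma adjusted p = 0.0387 and 0.0296), each losing its call in 5 of the 6 fits with 1 library left out. Pcolce, an enhancer of the C-proteinase, had a change of -0.08 (limma adjusted p = 0.717). After median-of-ratios scaling none of the 3 was called, and Pcolce was called lower (-0.53, limma adjusted p = 0.0337).
Of 6 crosslinking genes, Lox, Loxl1 and Loxl2 rose. Lox, lysyl oxidase, had 3.22, 1.01 and 2.502 TPM and then 6.23, 8.99 and 13.6 TPM (1.71, limma adjusted p = 0.0193; lost without replicate B of E18.5), and Loxl1 had 4.42, 4.20 and 3.65 TPM and then 12.7, 11.8 and 20.2 TPM (1.61, limma adjusted p = 0.01003). Loxl2 rose by 0.63, a call lost whenever 1 library was left out. After median-of-ratios scaling Loxl1 was the only one of the list called. Pxdn, the peroxidase that crosslinks type IV collagen, was the most abundant of the list and did not pass, with 33.3, 29.8 and 12.3 TPM and then 41.9, 42.7 and 45.2 TPM (0.88, limma adjusted p = 0.0874).

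Of 9 tested genes for proteins that bind collagen fibrils, 8 rose, with a median change of 1.57. Lum did not pass (1.09, limma adjusted p = 0.0530). Fn1, fibronectin, was the most abundant, with 2591, 2890 and 2256 TPM at E16.5, against 6951, 5550 and 5348 TPM at E18.5 (1.20, limma adjusted p = 0.0129). Sparc, a collagen-binding glycoprotein, rose from 342, 374 and 152 TPM to 586, 722 and 580.3 TPM (1.22, limma adjusted p = 0.0337). The largest changes were those of Tnxb, a fibril-spacing tenascin (2.41), and Fmod, fibromodulin (2.002), followed by Dcn, decorin (1.81), Bgn, biglycan (1.65), Prelp (1.57) and Ogn (1.05). Sparc and Ogn each lost the call in 4 of the 6 fits with 1 library left out, and the other 6 kept it in each of them. After median-of-ratios scaling 5 were called, namely Tnxb, Fmod, Dcn, Bgn and Prelp.
The 4 partners of type IV collagen in basement membranes went both ways. Agrn, agrin, rose from 273, 294 and 157 TPM to 625, 726 and 459 TPM (1.34, limma adjusted p = 0.0168), and Hspg2, perlecan, from 166, 175 and 99.6 TPM to 256, 297 and 275 TPM (0.94, limma adjusted p = 0.0225), both losing the call without replicate A or replicate B of E18.5. Nid1, nidogen 1, which links type IV collagen to laminin, fell from 246, 244 and 278 TPM to 107, 118 and 157 TPM (-1.02, limma adjusted p = 0.0106), and Nid2 fell by 0.69 (limma adjusted p = 0.0312), a call lost in 4 of the 6 fits with 1 library left out. Nid1 therefore went the other way from Col4a1 and Col4a2, with no overlap between its stages. After median-of-ratios scaling Hspg2 was no longer called (0.48, limma adjusted p = 0.0886).
Of 8 collagen receptor genes tested, 2 rose, a share near the background, and 2 fell. Itgb1, the integrin beta chain common to the collagen-binding integrins, was the most abundant and had a change of 0.21 (limma adjusted p = 0.267). Ddr1, a receptor tyrosine kinase for collagen in epithelia, rose from 69.4, 85.8 and 29.3 TPM to 171, 197 and 138 TPM (1.56, limma adjusted p = 0.0246; lost without replicate A or replicate B of E18.5), and Itga1 rose by 0.64, a call lost without replicate A of E18.5. After median-of-ratios scaling neither was called. Gp6, the collagen receptor of platelets, fell from 47.2, 30.7 and 70.7 TPM to 0.669, 6.43 and 1.46 TPM (-3.94, limma adjusted p = 0.00945), and Itga2 fell from 39.7, 23.7 and 50.2 TPM to 2.99, 8.42 and 10.2 TPM (-2.31, limma adjusted p = 0.0142). All 9 megakaryocyte markers were called lower beside them, with a median change of -4.39; their part in these values was not tested.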

How the data were processed

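RNA was measured in 3 libraries per stage (E16.5, E18.5), grouped by the developmental stage in the sample labels. The authors checked reads with FastQC 0.11.7, trimmed them with Trimmomatic, mapped them to GRCm38 with HISAT2 2.1.0, counted them with HTSeq-count 0.5.4p3 against GENCODE vM15 and deposited TPM, whose unit fixes each library's total. Symbols, positions and exon lengths came from GENCODE vM21 (52403 identifiers matched without version, 147 did not), and all 44 collagen genes were found there. Multiplying TPM by exon length gave whole reads for 49583 genes (within 0.01), among them 39 collagen genes. These reads gave the depth and entered 1 alternative.

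log2(TPM + 1) was tested with limma 3.58.1 under R 4.3.3 (eBayes with trend, two-sided) over genes averaging 1 TPM or more, at an adjusted p of 0.05. Chain ratios were tested by exact permutation in Python 3.11.15. The steps were checked on simulated libraries. The alternatives were another pseudocount, 2 other filters, median-of-ratios and quantile scaling, eBayes without trend or robust, voom on the recovered reads, blocking on the replicate letter, and omission of each library in turn. The letters were not taken to pair samples, because the labels do not say that they do. Same-letter libraries correlated at -0.04, 0.08 and 0.14 in their deviations from the stage means. With 3 libraries a stage such deviations depend on each other, so these values cannot settle whether letters mark pairs.

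Collagen genes are given by library where their mean reached 5 TPM at a stage or they were called. Processing and receptor genes are named where called with a change of at least 1 or among the 2 most abundant of their list, and Plod1, Plod3, Ppib, Sec24d, Nid2, Itga1 and Lum were added after their values were seen. The rule for the members uses gene symbols alone, but the choice of this gene family and of all lists was made with earlier results of these data known.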

Additional observations from a re-analysis of the deposited data

How the results depend on the processing

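Of 533 values of single collagen genes under the alternatives, 463 kept direction and side of the threshold, 62 kept direction but lost the call, 5 gained one and 3 changed direction. The last were Col10a1 (-0.058 with median-of-ratios scaling and -0.14 with quantile normalization) and Col18a1 (-0.34 to 0.031 with 1 library left out, above 0 only without replicate B of E18.5), none of them called. The 19 collagen genes called higher became 9 with median-of-ratios scaling, 11 with quantile normalization and 9 to 17 with 1 library left out, and 14 to 19 with the other alternatives. In limma none was called lower under any alternative. Over all genes, 7000 calls became 4282 with no filter on low values (43310 genes tested), 3818 with median-of-ratios scaling, 3796 with quantile normalization and 1472 to 5686 with 1 library left out. The difference in summed collagen TPM, 907 as deposited, was 372 with median-of-ratios scaling and 752 to 989 with 1 library left out. The log2 difference of the Col4a1 to Col4a2 ratio ranged from -0.0177 to 0.0394 with 1 library left out (-0.00868 without replicate A of E16.5, -0.0177 without replicate B of E18.5). With the replicate letter as a block, 17 collagen genes were called (Col5a2 and Col6a3 were lost) and 7314 genes in all, while not every library correlated best with its own letter; exact sign flips of the chain ratios cannot go below p = 0.25. The causes of these changes were not tested. The 7 genes not tested were left out by their mean TPM, and recovered reads for 6 of them lay between 0 and 64 a library.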
